A study of Homo sapiens with 12 samples.

Results

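The 10 genes described here encode the enzymes, fibril proteins, carriers and receptors with which a pigment cell makes melanin inside its melanosomes. They are TYR, TYRP1, DCT, PMEL, MLANA, SLC45A2, SLC24A5, OCA2, GPR143 and TRPM1. They were chosen by symbol, and all 10 are listed among the 12616 genes of the expression table, so none of them had been removed as too low. Each was compared across 4 groups of 3 libraries. MeWo and SkMel28 are human cutaneous melanoma cell lines that carry a short hairpin RNA against MITF, made by the cells when doxycycline (Dox) is added. MeWo control and SkMel28 control received 0 µg/ml Dox and MeWo Dox and SkMel28 Dox received 1 µg/ml, all for 8 days with the medium renewed every other day. Every group, the controls included, carries the hairpin. No group received Dox without it, so the hairpin and the drug cannot be told apart. MeWo is labelled as grown in EMEM and SkMel28 in RPMI, both with serum, so line and medium cannot be told apart either. The labels do not say whether replicates came from separate cultures, and p-values therefore measure only the spread between these libraries, which may be technical.

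Melanin is made in the melanosome, an organelle related to the lysosome. TYR oxidises tyrosine in the first and rate-limiting step, and DCT and TYRP1 act later on the route to the brown-black eumelanin. PMEL is cut into fragments that form the fibrils on which melanin is laid down, and MLANA is a small membrane protein needed for the normal processing of PMEL. SLC45A2, SLC24A5 and OCA2 carry ions or solutes across melanosomal or other internal membranes and affect the pH or ion content in which TYR works. Loss of TYR, TYRP1, SLC45A2, SLC24A5 or OCA2 causes forms of albinism, and loss of GPR143, a receptor of the melanosome membrane, causes ocular albinism. TRPM1 is a cation channel of melanocytes and of retinal bipolar cells. MITF, the target of the hairpin, is the transcription factor of the melanocyte lineage and binds DNA at the letters CACGTG or CATGTG. The longer form TCATGTG is the core of the M-box known from pigment gene promoters.

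RNA was read at the 3′ ends of polyadenylated transcripts, and values are reads scaled to 1000000 by the normalised size of the library. Depth was 2568187 to 3714608 reads per library, so that 1 read is a value of 0.278 to 0.389. Replicates correlated across genes at r = 0.9599 to 0.9761 in MeWo Dox and at 0.9787 to 0.9852 in the other groups, which describes the libraries only. All 6 fixed markers of the melanocyte lineage were listed, MITF among them, with summed values of 1730 to 1810 in MeWo control, 1180 to 1560 in MeWo Dox, 1780 to 1960 in untreated SkMel28 and 2370 to 2520 in SkMel28 Dox. None of the 5 keratinocyte, 4 endothelial or 5 leukocyte markers was, and of 6 fibroblast markers only DCN and LUM were, with summed values of 41.5 to 47.8 in MeWo control, 9.85 to 19.2 in MeWo Dox, 10.9 to 13.3 in untreated SkMel28 and 6.04 to 8.91 in SkMel28 Dox. Of 4 epithelial markers KRT18 and CDH1 were listed, with sums of 46.6 to 62.8, 20.1 to 33.5, 18.9 to 32.2 and 16.7 to 20.9 in the same order of groups. These sums moved with the groups, and their part in the results was not tested. The melanocyte sum mixes opposite changes. With Dox in MeWo, S100A1, S100B and PAX3 were called higher and MITF, SOX10 and TFAP2A lower (limma, adjusted p under 0.05). With Dox in SkMel28, S100B and TFAP2A were called higher and MITF lower, and SOX10, PAX3 and S100A1 were not called. S100B alone went from 510 to 1123 in SkMel28. In bulk RNA, fewer cells of a kind and less RNA per cell cannot be told apart.

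Promoters are shown because 7 of the 8 members with a promoter window hold CATGTG there. The members were chosen as pigment genes, and the longer motif is known from the promoters of such genes. Its presence here is therefore not an independent result. RefSeq windows (GRCh38.p14) were found for 8 members, all except PMEL and SLC45A2, with 2 start sites each for DCT and TRPM1. In the 250 bases before the start, CATGTG was found on either strand in 7 of the 8, and in 5 of them, TYR, TYRP1, DCT, SLC24A5 and GPR143, it stood within the longer TCATGTG. Among all 35116 windows of this length 9.42% held CATGTG and 2.52% held TCATGTG. Counted by gene symbol, as for the members, the shares were 11.5% and 3.11%. The letters CACGTG, held by 6.34% of windows, were not found in any member window. MLANA had none of the 3 motifs. The 220 bases before the start are printed here, read 5′ to 3′ on the strand of the gene, for the 5 members with TCATGTG and for TRPM1, which changed most with Dox. Capitals mark CATGTG or its reverse CACATG, with the added T or A where the longer motif is complete.
TYR promoter, chr11:89177655-89177874, + strand: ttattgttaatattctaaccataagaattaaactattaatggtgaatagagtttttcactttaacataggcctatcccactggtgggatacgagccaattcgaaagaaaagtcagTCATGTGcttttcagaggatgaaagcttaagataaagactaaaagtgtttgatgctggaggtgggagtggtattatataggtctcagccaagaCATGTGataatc
TYRP1 promoter, chr9:12693165-12693384, + strand: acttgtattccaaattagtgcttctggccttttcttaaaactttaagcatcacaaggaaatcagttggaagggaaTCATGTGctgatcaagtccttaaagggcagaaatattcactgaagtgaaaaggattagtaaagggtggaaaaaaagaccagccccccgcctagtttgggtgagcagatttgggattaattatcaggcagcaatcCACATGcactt
DCT promoter, chr13:94479683-94479902, − strand: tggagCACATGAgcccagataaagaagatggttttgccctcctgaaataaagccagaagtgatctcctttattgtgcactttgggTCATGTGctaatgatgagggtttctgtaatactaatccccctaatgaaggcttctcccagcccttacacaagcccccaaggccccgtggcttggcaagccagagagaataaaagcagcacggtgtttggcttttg
SLC24A5 promoter, chr15:48120770-48120989, + strand: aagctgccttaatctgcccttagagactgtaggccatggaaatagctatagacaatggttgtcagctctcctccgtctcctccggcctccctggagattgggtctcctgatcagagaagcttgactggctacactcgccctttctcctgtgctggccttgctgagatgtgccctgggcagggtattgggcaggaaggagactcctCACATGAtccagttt
GPR143 promoter, chrX:9765848-9766067, − strand: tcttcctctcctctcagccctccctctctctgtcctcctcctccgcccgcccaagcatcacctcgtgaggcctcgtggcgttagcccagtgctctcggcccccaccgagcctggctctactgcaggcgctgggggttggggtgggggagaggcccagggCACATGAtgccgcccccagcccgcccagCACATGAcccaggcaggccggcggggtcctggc
TRPM1 promoter, chr15:31161161-31161380, − strand: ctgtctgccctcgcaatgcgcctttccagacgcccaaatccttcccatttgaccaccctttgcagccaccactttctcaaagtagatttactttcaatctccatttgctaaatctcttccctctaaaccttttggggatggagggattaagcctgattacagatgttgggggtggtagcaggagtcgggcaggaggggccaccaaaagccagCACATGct
In TYR the longer motif starts 105 bases before the transcript start and a second CATGTG 12 bases before it. In TYRP1 the longer motif starts at 145 bases, in DCT at 215 and at 135 bases before the start shown (the window at its other start held none of the motifs), in SLC24A5 at 15 bases, and in GPR143 at 61 and at 33 bases. TRPM1 has CACATG 8 bases before the start shown and 56 bases before its other start, and OCA2 has CATGTG at 153 bases. A match is a description of letters, and binding was not measured in these libraries.

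The hairpin target was measured first. MITF (chromosome 3, 69739456 to 69968336, + strand, hg38) stood at 657, 663 and 708 in MeWo control and at 451, 354 and 371 in MeWo Dox. In SkMel28 it stood at 861, 739 and 792 in control and at 575, 578 and 552 with Dox. Within both lines the highest Dox library was below the lowest control, and the mean with Dox was 58% of control in MeWo and 71.3% in SkMel28. The change was −0.79 (SE 0.11, adjusted p 6.49e-05) in MeWo and −0.49 (SE 0.11, adjusted p 0.00705) in SkMel28 on the log2(value + 1) scale used for every change below, by limma across all genes. Without the mean-variance trend the SkMel28 change kept its size (−0.49) and its adjusted p was at the threshold, at 0.05. The difference between the MITF changes of the lines, −0.31 (SE 0.15), was not called (adjusted p 0.225). It was called only without MeWo Dox replicate 1 (−0.41, adjusted p 0.0169).

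The main question was how the pigment genes moved when MITF was lowered. In MeWo all 10 passed the test, 9 lower and DCT higher, beside 16.7% of all genes called and 8.12% called lower. In SkMel28 5 passed, PMEL, MLANA, SLC45A2, GPR143 and TRPM1, all lower, beside 10.9% of all genes called and 5.04% called lower. These 5 were called lower in both lines. The counts of 10 and 5 rest on a spread estimated over all 4 groups together, and the members varied most in MeWo Dox. With each line fitted alone, 7 members were called in MeWo and 6 in SkMel28. With scaling to the spike-ins or without the mean-variance trend, 7 were called in MeWo and 5 in SkMel28. The number of members called therefore does not show a broader response in MeWo. The median change of the 10 genes was −1.03 in MeWo and −0.53 in SkMel28, where the medians of all genes were 0.000 and 0.003. Changes in MeWo ran from −2.63 for TRPM1 to 0.91 for DCT, and those in SkMel28 from −2.01 for TRPM1 to 0.32 for SLC24A5. The size of the change differed between the lines for 4 members, TYRP1, DCT, MLANA and SLC24A5, beside 7.09% of all genes.

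**Figure D1:**
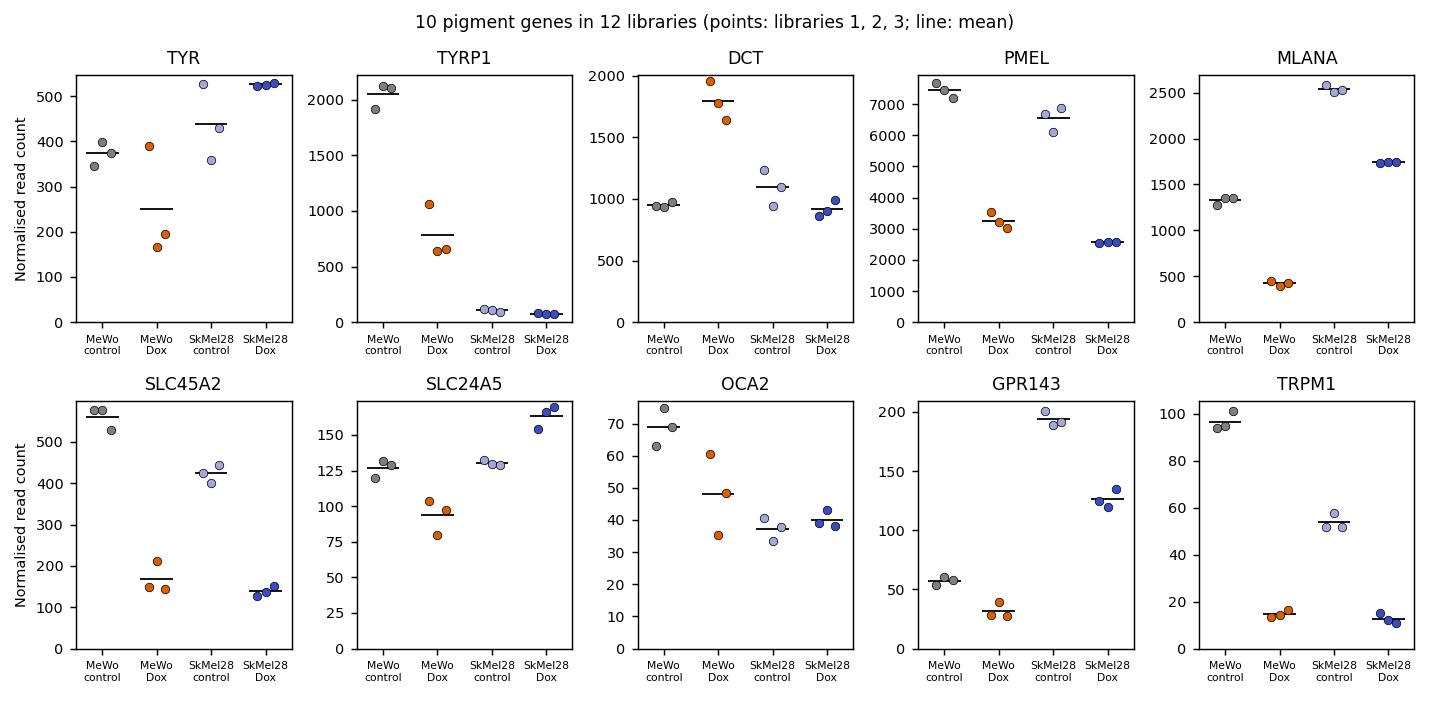
Normalised read count (vertical axis, from 0, a separate scale for each gene) of the 10 genes in every library of the 4 groups, with points for replicates 1, 2 and 3 from left to right and a line at the group mean. PMEL, SLC45A2 and TRPM1 drop in both lines, DCT climbs from 949.5 to 1790 in MeWo, and TYRP1 is near the foot of its scale in SkMel28.

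**Figure D2:**
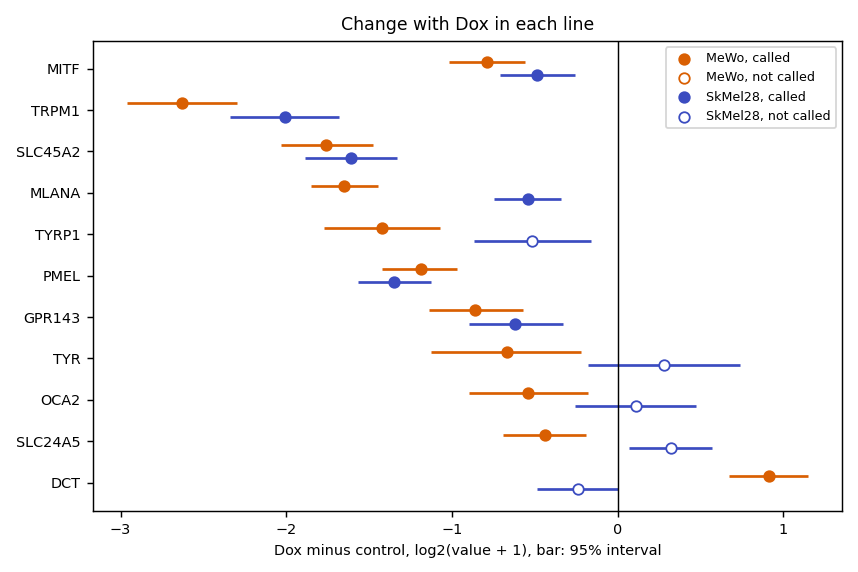
Change with Dox on the log2(value + 1) scale (horizontal axis) for MITF and the 10 genes in MeWo and SkMel28, with bars for the 95% interval and filled points for genes called at an adjusted p under 0.05. All MeWo points are filled, and DCT at 0.91 is the only MeWo point above 0.

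TYR, tyrosinase (chromosome 11, 89177875 to 89295759, + strand), stood at 346, 398 and 375 in MeWo control and at 389, 167 and 194 in MeWo Dox. The SkMel28 libraries gave 526, 359.5 and 429 in control and 523, 525 and 529 with Dox. MeWo Dox replicate 1 lay inside the range of its controls while replicates 2 and 3 lay under it, and in SkMel28 the groups overlapped. The mean with Dox was 67.1% of control in MeWo, a change of −0.67 (SE 0.22, adjusted p 0.0418), and 120% in SkMel28, a change of 0.28 (SE 0.22, adjusted p 0.486). The difference between these changes, −0.95 (SE 0.31), was not called (adjusted p 0.066), but was without MeWo Dox replicate 1 (−1.32, adjusted p 2.16e-05). The MeWo call was lost in 15 of 23 alternatives, including edgeR (−0.57), DESeq2 (−0.56), scaling to the spike-ins (−0.40) and the fit of MeWo alone, and without MeWo control replicate 1 (−0.73), 2 (−0.63) or 3 (−0.67), MeWo Dox replicate 2 (−0.44) or 3 (−0.54), and SkMel28 control replicate 3 or any SkMel28 Dox library (each −0.67). Part of TYR has a near copy in the pseudogene TYRL, so that reads of TYR are uncertain where the authors' counting could split them.

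TYRP1 (chromosome 9, 12685439 to 12710285, + strand), which acts late in eumelanin synthesis and stabilises TYR, stood at 1917, 2123 and 2103 in MeWo control and at 1065, 638 and 659 in MeWo Dox. Values in SkMel28 were far lower, 122.5, 112 and 90.8 in control and 86.1, 69.9 and 70.1 with Dox. The Dox and control libraries of each line did not overlap. With Dox the mean was 38.4% of control in MeWo (change −1.42, SE 0.17, adjusted p 1.24e-05) and 69.4% in SkMel28 (change −0.52, SE 0.17, adjusted p 0.0568), the latter not called. It was called in SkMel28 without SkMel28 control replicate 3 (−0.64, adjusted p 0.0483), MeWo Dox replicate 1 (adjusted p 0.00238) or MeWo Dox replicate 2 (adjusted p 0.0359), the latter pair entering through the shared estimate of the spread. The changes differed between the lines by −0.90 (SE 0.24, adjusted p 0.0298). That call was lost in 11 of 22 alternatives, namely scaling to the spike-ins (−0.53), no mean-variance trend, and without MeWo control replicate 1 (−0.95), 2 (−0.87) or 3 (−0.88), MeWo Dox replicate 2 (−0.77) or 3 (−0.79), SkMel28 control replicate 2 (−0.93) or 3 (−0.78), or SkMel28 Dox replicate 1 (−0.80) or 2 (−0.95).

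DCT, dopachrome tautomerase (chromosome 13, 94436811 to 94479682, − strand), was the only member that rose in MeWo. It stood at 939.9, 933 and 976 in MeWo control and at 1954, 1781 and 1637 in MeWo Dox. In SkMel28 it stood at 1238, 945 and 1097 in control and at 858, 904 and 995 with Dox. Every MeWo Dox library lay above every library of the other 3 groups, and the SkMel28 groups overlapped. The mean with Dox was 189% of control in MeWo (change 0.91, SE 0.11, adjusted p 2.71e-05) and 84.1% in SkMel28 (change −0.24, SE 0.11, adjusted p 0.207). The changes differed by 1.15 (SE 0.16, adjusted p 0.00045). The rise in MeWo (0.77 to 1.18) and the difference between lines (0.98 to 1.53) were called in every alternative run.

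PMEL, the fibril protein (chromosome 12, 55954105 to 55973317, − strand), stood at 7694, 7449 and 7208 in MeWo control and at 3542, 3220 and 3022 in MeWo Dox. The SkMel28 libraries gave 6701, 6105 and 6880 in control and 2530, 2586 and 2591 with Dox. Dox and control libraries were far apart in both lines. With Dox the mean was 43.8% of control in MeWo (change −1.19, SE 0.11, adjusted p 4.9e-07) and 39.1% in SkMel28 (change −1.35, SE 0.11, adjusted p 2.73e-07). The difference of 0.16 between these changes was not called (adjusted p 0.537), with an interval from −0.16 to 0.47. CDK2, a cell cycle kinase gene on the other strand, lies within the annotated span of PMEL but not over its last exon, where 3′ reads fall. CDK2 went from 2930 to 1140 in MeWo (change −1.43, adjusted p 5.26e-05) and from 1790 to 701 in SkMel28 (change −1.33, adjusted p 0.000172). The strand used in counting is not given in the sources used here, and whether reads of PMEL and CDK2 were shared was not tested.

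MLANA (chromosome 9, 5890889 to 5910606, + strand), the melanosomal partner of PMEL, stood at 1271, 1351 and 1358 in MeWo control and at 451, 391 and 427 in MeWo Dox. Values in SkMel28 were 2587, 2510 and 2523 in control and 1734, 1748 and 1740 with Dox. MLANA with Dox in SkMel28 was still above MLANA without Dox in MeWo. The mean with Dox was 31.9% of control in MeWo (change −1.65, SE 0.10, adjusted p 5.33e-09) and 68.5% in SkMel28 (change −0.54, SE 0.10, adjusted p 0.00102). The changes differed by −1.10 (SE 0.14, adjusted p 0.000141), a call lost only with scaling to the spike-ins (−0.73, adjusted p 0.0603). Under that scaling the value of a gene moved, in the median over all genes, by 0.26 (MeWo), −0.094 (SkMel28) and 0.35 (difference between lines). Subtracting the last shift gives −1.08 for MLANA. This largely undoes the scaling by construction, so it cannot restore the lost call.

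SLC45A2, a melanosomal transporter (chromosome 5, 33944623 to 33984693, − strand), stood at 577, 577 and 529 in MeWo control and at 148, 211 and 145 in MeWo Dox. In SkMel28 it stood at 425, 402 and 445 in control and at 128, 137 and 151 with Dox. The Dox libraries of the lines overlapped with each other and lay under every control library. With Dox the mean was 29.9% of control in MeWo (change −1.76, SE 0.13, adjusted p 8.58e-08) and 32.7% in SkMel28 (change −1.61, SE 0.13, adjusted p 4.99e-07). The difference of −0.15 was not called (adjusted p 0.655), with an interval from −0.54 to 0.25.

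SLC24A5, an exchanger of sodium for calcium and potassium (chromosome 15, 48120990 to 48142672, + strand), stood at 119.5, 132 and 129 in MeWo control and at 103, 80.0 and 97.5 in MeWo Dox. The SkMel28 libraries gave 132.5, 129.8 and 129.1 in control and 154, 166 and 169.5 with Dox. The Dox libraries lay under all controls in MeWo and above all controls in SkMel28. The change was −0.44 (SE 0.12, adjusted p 0.0157) in MeWo, at 73.9% of control, and 0.32 (SE 0.12, adjusted p 0.0944, not called) in SkMel28, at 125% of control. The difference of −0.76 (SE 0.17) was called (adjusted p 0.0109) except with scaling to the spike-ins (−0.39, adjusted p 0.358). The MeWo call was lost in 6 of 23 alternatives, with the spike-ins (−0.17), without the mean-variance trend, with MeWo alone, and without MeWo control replicate 2 (−0.41) or 3 (−0.43) or MeWo Dox replicate 2 (−0.33), while the SkMel28 change was called with SkMel28 alone (adjusted p 0.0223) or without MeWo Dox replicate 1 (adjusted p 0.0305) or 2 (adjusted p 0.0452).

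OCA2, which governs chloride flow and pH of the melanosome (chromosome 15, 27754875 to 28099315, − strand), stood at 63.1, 75.0 and 69.0 in MeWo control and at 60.7, 35.3 and 48.4 in MeWo Dox. Values in SkMel28 were 40.7, 33.3 and 37.9 in control and 39.2, 43.1 and 38.1 with Dox. MeWo Dox replicate 1 came close to the lowest MeWo control, and the SkMel28 groups overlapped. The change was −0.54 (SE 0.17, adjusted p 0.0384) in MeWo, at 69.7% of control, and 0.11 (SE 0.17, adjusted p 0.78) in SkMel28, and the difference of −0.65 was not called (adjusted p 0.107) except without MeWo Dox replicate 1 (−0.83, adjusted p 0.00679). The MeWo call was lost in 13 of 23 alternatives, including DESeq2 (−0.50) and scaling to the spike-ins (−0.27), and without MeWo control replicate 1 (−0.60), 2 (−0.48) or 3 (−0.54), MeWo Dox replicate 2 (−0.34) or 3 (−0.56), or SkMel28 control replicate 3, SkMel28 Dox replicate 1 or SkMel28 Dox replicate 2 (each −0.54).

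GPR143 (chromosome X, 9725346 to 9786297, − strand), the receptor that helps to set melanosome size and number, stood at 53.9, 60.2 and 58.3 in MeWo control and at 28.1, 39.0 and 27.8 in MeWo Dox. In SkMel28 it stood at 201, 189 and 192 in control and at 124, 119 and 135 with Dox. All Dox libraries lay under the controls of their line, and all SkMel28 libraries above those of MeWo. The mean with Dox was 55.1% of control in MeWo (change −0.86, SE 0.14, adjusted p 0.000268) and 65.2% in SkMel28 (change −0.62, SE 0.14, adjusted p 0.00627). The difference of −0.24 was not called (adjusted p 0.452), with an interval from −0.65 to 0.16.

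TRPM1 (chromosome 15, 31001065 to 31161160, − strand), the cation channel, stood at 94.2, 94.8 and 101 in MeWo control and at 13.4, 14.4 and 16.6 in MeWo Dox. The SkMel28 libraries gave 51.8, 57.8 and 51.7 in control and 15.1, 12.03 and 10.9 with Dox. The lines differed without Dox, and with Dox their libraries overlapped. At 36 to 51 reads per Dox library these values were above the floor of 3 reads. With Dox the mean was 15.3% of control in MeWo (change −2.63, SE 0.16, adjusted p 5.65e-09) and 23.6% in SkMel28 (change −2.01, SE 0.16, adjusted p 2.67e-07). The difference of −0.62 (interval −1.09 to −0.16) was not called (adjusted p 0.0916) except at a pseudocount of 5 (adjusted p 0.0492).

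The falls of PMEL, MLANA, SLC45A2, GPR143 and TRPM1 in both lines and of TYRP1 in MeWo were called in every alternative run. Other listed genes overlap the last exon of 4 members on the opposite strand, namely LURAP1L-AS1 at TYRP1, KIAA2026 at MLANA, MYEF2 at SLC24A5 and TBL1X at GPR143. Their group means were 0.619 to 2.55 for LURAP1L-AS1, 10.2 to 15 for KIAA2026, 0.784 to 1.72 for MYEF2 and 9.5 to 33.2 for TBL1X. Of these, LURAP1L-AS1 (−1.18, adjusted p 0.0207) and TBL1X (0.77, adjusted p 0.0212) were called with Dox in SkMel28, and reads of overlapping genes cannot be told apart if strand was not used.

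The spread of the members was widest in MeWo Dox. The median coefficient of variation over the 10 genes was 16.6% there, 5.02% in MeWo control, 6.31% in SkMel28 control and 6.48% in SkMel28 Dox. Of the MeWo Dox libraries, replicate 1 was the highest for 7 of the 10 members, replicate 2 for SLC45A2 and GPR143, and replicate 3 for TRPM1. Relative to the mean of the MeWo controls, TYR stood at 104% in replicate 1 and at 44.8% and 52.1% in replicates 2 and 3. TYRP1 stood at 52%, 31.1% and 32.2% and OCA2 at 87.9%, 51.1% and 70.2%. MLANA varied least, at 34%, 29.5% and 32.2%. MITF itself was at 66.7%, 52.4% and 54.9%, with replicate 1 the highest. DCT, among the 7 members, was at 206%, 188% and 172%, so its replicate 1 lay furthest from the controls. Leaving replicate 1 out raised the calls over all genes in MeWo from 2107 to 3913, so its deviation was not confined to the members. The share of all genes highest in replicate 1 was not counted, and a link of the members to MITF in that library was not tested.

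**Figure D3:**
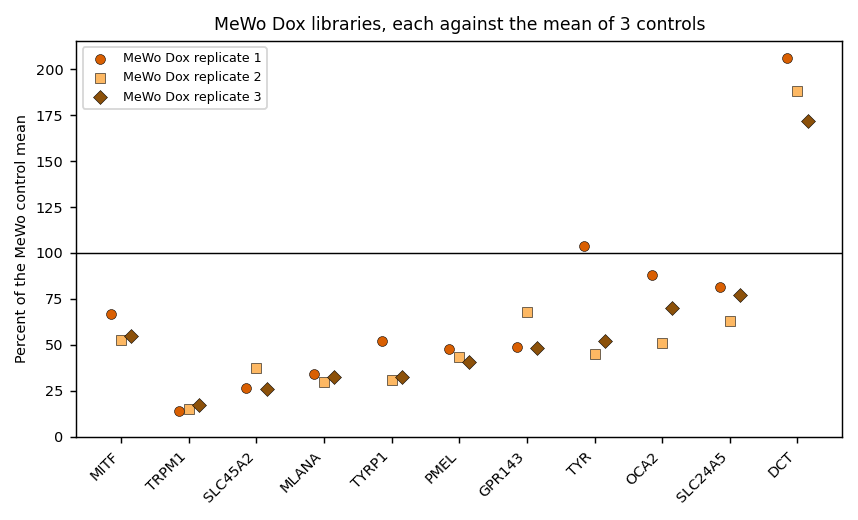
Value of MITF and the 10 genes in each MeWo Dox library as a percent of the mean of the 3 MeWo controls (vertical axis from 0, line at 100). TYR in replicate 1 lies at 104%, apart from 44.8% and 52.1% in replicates 2 and 3, and the 3 points of DCT lie between 172% and 206%.

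Together the 10 genes took 1.36% ± 0.0211 (SD, n = 3) of all gene reads in MeWo control and 0.693% ± 0.110 in MeWo Dox. In SkMel28 they took 1.30% ± 0.0654 in control and 0.733% ± 0.00642 with Dox. The MeWo Dox libraries ran from 0.623 to 0.819%, under every control library of either line. PMEL made up most of the members' reads without Dox, 57.1% in MeWo and 56.7% in SkMel28, and 47.6% and 40.7% with Dox. These are shares of reads and not of molecules.

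The lines were also compared with each other. Without Dox, 6 of the 10 members differed between SkMel28 and MeWo, 2 higher and 4 lower in SkMel28, beside 51.4% of all genes, so the share of members was near that of the table. With Dox, 7 differed, 4 higher and 3 lower in SkMel28, beside 53.6%. TYRP1 was 18.9 times lower in SkMel28 than in MeWo without Dox (−4.23, SE 0.17, adjusted p 2.4e-12) and 10.4 times lower with Dox (−3.33, SE 0.17, adjusted p 3.67e-11). GPR143 was 3.37 times higher in SkMel28 without Dox (1.74, adjusted p 1.06e-08) and 3.99 times with Dox (1.98, adjusted p 2.01e-09). MLANA was 1.91 times higher without Dox (0.94, adjusted p 3.09e-07) and 4.11 times with Dox (2.04, adjusted p 1.49e-11).

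For most of the other genes a difference between the lines was called in only 1 of the conditions. Whether that difference itself changed is the test of the difference of Dox changes given for each gene, called for DCT and SLC24A5 and not for TYR, TRPM1, OCA2, SLC45A2 or PMEL. TYR and SLC24A5 were not called between the control groups (0.22, adjusted p 0.423, and 0.043, adjusted p 0.776) and were higher in SkMel28 with Dox, by 1.17 (adjusted p 0.000221) and 0.80 (adjusted p 1.79e-05). DCT was not called without Dox (0.19, adjusted p 0.168) and was lower in SkMel28 with Dox (−0.96, adjusted p 1.98e-06). TRPM1 and OCA2 were lower in SkMel28 without Dox, with differences of −0.84 (adjusted p 0.000241) and −0.87 (adjusted p 0.000393). With Dox neither was called, TRPM1 at −0.21 (adjusted p 0.261) and OCA2 at −0.22 (adjusted p 0.285), although OCA2 was without MeWo Dox replicate 2 (−0.43, adjusted p 0.03). SLC45A2 was lower in SkMel28 without Dox (−0.40, adjusted p 0.0173). This call was lost without MeWo control replicate 1 or 2 (each −0.38) or SkMel28 control replicate 2 (−0.36), with the spike-ins (−0.25) and without the mean-variance trend. With Dox SLC45A2 differed by −0.25 (adjusted p 0.116), called without MeWo Dox replicate 1 (−0.33) or with the spike-ins (−0.48). PMEL differed by −0.18 without Dox (adjusted p 0.155) and by −0.34 with Dox (adjusted p 0.0116). Quantile normalization turned both, to 0.27 (adjusted p 0.0471) and 0.24 (adjusted p 0.0751).

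**Figure D4:**
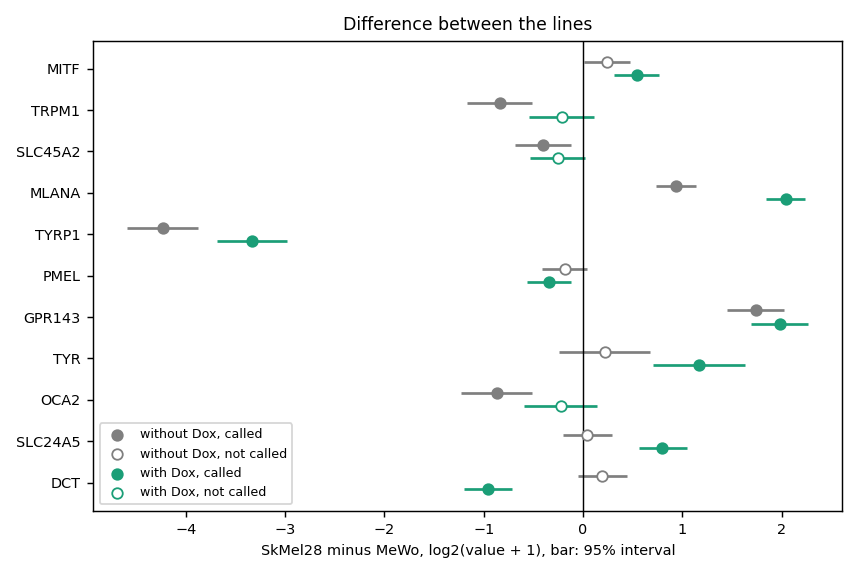
Difference between the lines, SkMel28 minus MeWo, on the log2(value + 1) scale (horizontal axis) for MITF and the 10 genes without and with Dox, with bars for the 95% interval and filled points for called genes. TYRP1 lies far to the left at −4.23 and −3.33, and GPR143 and MLANA lie to the right in both conditions.

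Ordered by level, the 4 groups of PMEL ran from MeWo control through SkMel28 control and MeWo Dox to SkMel28 Dox, with no overlap of neighbours. MLANA ran from SkMel28 control through SkMel28 Dox and MeWo control to MeWo Dox, and GPR143 in the same order, again without overlap. TYRP1 ran from MeWo control through MeWo Dox and SkMel28 control to SkMel28 Dox without overlap. For SLC45A2 and TRPM1 the order was that of PMEL, and the MeWo Dox and SkMel28 Dox groups, the lowest, overlapped. For DCT the highest group, MeWo Dox, stood apart and the other 3 overlapped with their neighbours. For SLC24A5, SkMel28 Dox was the highest and MeWo Dox the lowest, and the control groups between them overlapped. For OCA2 MeWo control stood apart above the other groups, and for TYR all neighbours in the order overlapped.

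The rest of the pigment pathway was read from 4 lists. Of 15 tested regulators of pigment genes (of 17 listed, without ASIP and POMC), 2 rose and 4 fell in MeWo and 2 rose and 2 fell in SkMel28, with median changes of −0.29 and 0.12. The background is that given above, 16.7% of all genes called in MeWo and 10.9% in SkMel28, and for TFAP2A alone the changes were called different between the lines. TFAP2A, a transcription factor that acts beside MITF, fell from 682 ± 24.2 to 399.6 ± 78.0 in MeWo (−0.79, adjusted p 0.000208) and rose from 149 ± 7.07 to 302 ± 8.21 in SkMel28 (1.02, adjusted p 2.66e-05). The difference of −1.81 was called (adjusted p 1.09e-05), and in every alternative run. KIT, the receptor for stem cell factor, was low in SkMel28, at 4.31 ± 2.06 and 1.53 ± 0.74 (−1.04, adjusted p 0.0138), a call lost at a pseudocount of 5, with SkMel28 alone and without SkMel28 control replicate 1 (−0.74), SkMel28 Dox replicate 2 (−0.89) or 3 (−0.96). In MeWo KIT changed by −0.47 (adjusted p 0.235). IRF4, which acts with MITF on TYR, was at 1.96 ± 0.342 in MeWo control and at no more than 3 reads in any MeWo Dox library (−0.95, adjusted p 0.0208). Its MeWo call was lost in 7 of 23 alternatives, among them edgeR (−1.71), DESeq2 (−1.76), a pseudocount of 5 (−0.32) and without MeWo control replicate 1 (−0.87) or 2 (−0.95) or MeWo Dox replicate 3 (−0.65), and its fitted size depends on the pseudocount at these reads.

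Of 31 tested genes for sorting cargo to melanosomes and moving them (of 32, without BLOC1S5), 12 fell and 0 rose in MeWo, while 5 fell and 3 rose in SkMel28, with medians of −0.22 and −0.20. Among all genes 8.12% were called lower in MeWo and 5.04% in SkMel28. The changes themselves were called different between the lines for 5 of the 31. RAB27A, the GTPase that ties melanosomes to their motor, fell from 167 ± 5.59 to 60.4 ± 12.7 in MeWo (−1.47, adjusted p 9.53e-07) and from 239 ± 17.3 to 67.6 ± 0.313 in SkMel28 (−1.80, adjusted p 2.5e-07). Its partner MLPH fell in MeWo (−1.46, adjusted p 6.76e-07). In SkMel28 MLPH changed by −0.51 (adjusted p 0.0179), a call lost without the mean-variance trend and without SkMel28 control replicate 1 (−0.49) or 3 (−0.44) or SkMel28 Dox replicate 1 (−0.49) or 2 (−0.52). KIF13A, a motor that brings TYRP1 to the melanosome, rose in SkMel28 from 38.2 ± 3.55 to 97.8 ± 10.0 (1.33, adjusted p 8.79e-06) and changed by 0.12 in MeWo (adjusted p 0.599). The KIF13A difference of −1.21 was called (adjusted p 0.00167) except with the spike-ins (−0.84). HPS3, part of a complex for melanosome biogenesis, fell in MeWo (−1.21, adjusted p 0.00362), except with MeWo alone, and changed by −0.39 in SkMel28 (adjusted p 0.394).

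Of 18 other ion carriers and proton pump parts of melanosomes and lysosomes, 7 fell and 1 rose in MeWo, and 2 fell and 1 rose in SkMel28, beside 16.7% and 10.9% of all genes called. The changes were called different between the lines for 3 of the 18. The medians were −0.55, or −0.51 with genes at 3 reads or fewer set to that floor, and 0.089. The proton pump subunits ATP6V0A1 and ATP6V1B2 fell in MeWo, with changes of −1.09 (adjusted p 6.08e-05) and −1.07 (adjusted p 1.07e-06) and changed by −0.39 (adjusted p 0.113) and −0.21 (adjusted p 0.214) in SkMel28. ATP6V0A1 was called in SkMel28 without SkMel28 control replicate 2 (−0.52). The chloride carrier CLCN7 fell in both lines, with changes of −0.89 (adjusted p 0.00295, lost with MeWo alone) and −0.82 (adjusted p 0.00745). The subunit ATP6V0D2 was called lower in both lines, from 10.0 ± 1.86 to 0.492 ± 0.584 and from 17.8 ± 3.17 to 0.829 ± 0.757, with at most 3 and 5 reads in a Dox library. TPCN2 moved in opposite directions. It fell from 720 ± 41.0 to 402 ± 18.5 in MeWo (−0.84, adjusted p 0.000109). In SkMel28 TPCN2 rose from 15.6 ± 1.70 to 29.5 ± 3.05 (0.88, adjusted p 0.000107), and the difference of −1.72 was called (adjusted p 1.66e-05).

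Of 13 genes for the processing of PMEL into fibrils, 1 rose and 1 fell in MeWo and 3 rose and 2 fell in SkMel28, with medians of −0.031 and 0.011. Among all genes 16.7% were called in MeWo and 10.9% in SkMel28, so that 2 of 13 in MeWo is near the background. FURIN, a protease of the Golgi, rose from 91.5 ± 19.3 to 157 ± 14.8 in MeWo (0.79, adjusted p 0.00144), except with MeWo alone. CD63, which sorts PMEL in the endosome, fell from 14320 ± 1370 to 8738 ± 429 in SkMel28 (−0.71, adjusted p 0.000534). In MeWo CD63 changed by −0.32 (adjusted p 0.067), called by edgeR (adjusted p 0.028) and DESeq2 (adjusted p 0.0363), with quantile normalization (−0.46) and without MeWo Dox replicate 1 (−0.29). APOE, on whose particles fibrils form, fell in SkMel28 (−0.73, adjusted p 0.00339) and changed by −0.052 in MeWo (adjusted p 0.858). The protease BACE1 rose in SkMel28 from the low level of 2.16 ± 0.915 to 5.81 ± 0.682 (1.14, adjusted p 0.00338). The gene that fell in MeWo was BACE2, from 803 ± 44.4 to 546 ± 221 (−0.63, adjusted p 0.0295). Its MeWo Dox replicate 1, at 799.9, lay inside the range of the controls. In SkMel28 BACE2 changed by −0.040 (adjusted p 0.933).

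**Figure D5:**
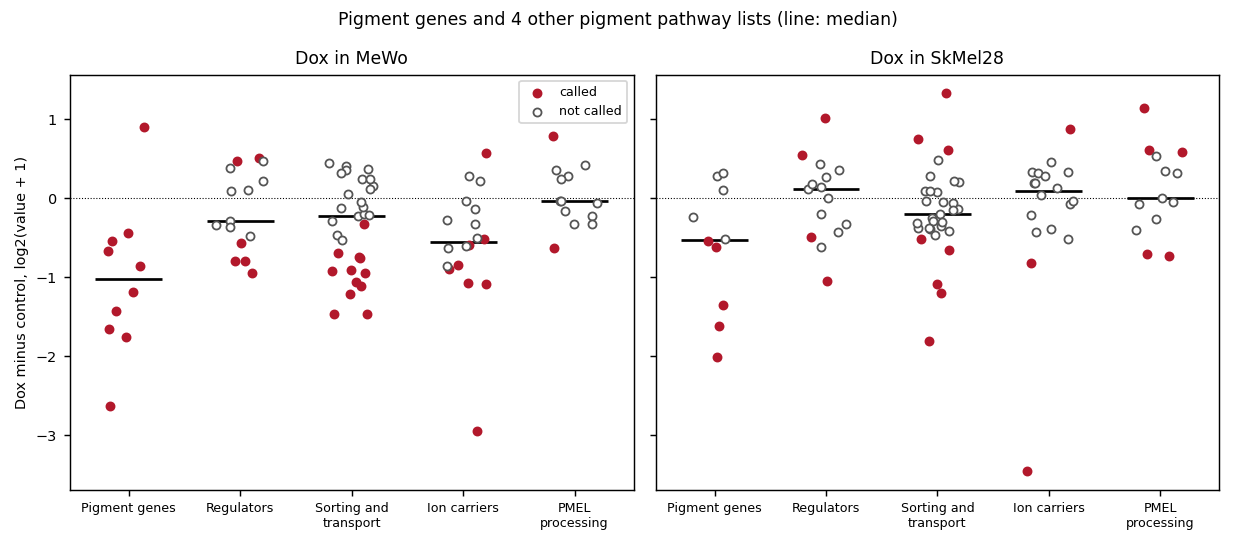
Change with Dox on the log2(value + 1) scale (vertical axis) of the 10 pigment genes and of the 4 pathway lists in MeWo (left) and SkMel28 (right), with a point for each gene, filled where called, and a line at the median. The medians of the pigment genes lie at −1.03 and −0.53, and the lowest ion carrier point, ATP6V0D2, rests on few reads with Dox.

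The members did not all follow a single profile over the 12 libraries. The root mean square difference between centred log2(value + 1) profiles was smallest for PMEL with SLC45A2 (0.26), TYR with SLC24A5 (0.28) and MLANA with GPR143 (0.37). It was largest for TYRP1 with GPR143 (2.84). Among 8063 other genes with a mean of at least 10, those nearest to PMEL were YIPF1 (0.18) and SLC39A11 (0.19), to SLC45A2 RGS12 (0.25) and SLC39A11 (0.27), and to TRPM1 TRIM63 (0.42) and RGS12 (0.50). Nearest to MLANA were PPFIBP2 (0.19) and BHLHE41 (0.21), to GPR143 PHGDH (0.13) and SCD (0.15), and to TYRP1 PPARGC1A (0.38) and HSBP1L1 (0.42). Nearest to TYR were KLHL7 (0.12) and AAR2 (0.12), to SLC24A5 MUT (0.09) and TSPO (0.11), to OCA2 LARP4 (0.13) and SPG20 (0.14), and to DCT LHFP (0.17) and WARS (0.18). WARS, for example, had group means of 84.3, 170, 92.2 and 101 in MeWo control, MeWo Dox, SkMel28 control and SkMel28 Dox. The measure describes likeness over these libraries, which share depth, lines and doses, and is smaller for genes that vary little.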

How the data were processed

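The 12 libraries (total RNA, QuantSeq Forward) were trimmed and mapped to hg38, and per the submitters' processing notes FastQC 0.11.7, cutadapt 2.8, STAR 2.5.1b and edgeR were used. The counting tool, annotation and strand are not given in the sources used here. The deposited values are a normalised signal per gene, made by the authors as reads per effective library size multiplied by 1000000. All listed features reach about 1 in at least 3 libraries. In every library 100% of values were whole multiples of 1 read (tolerance 0.01), so reads could be recovered as counts for the alternatives. Normalization factors were 0.906 to 1.088, and 67 spike-ins (5.69 to 8.55% of reads) were set aside.

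limma 3.58.1 (R 4.3.3) was fitted to log2(value + 1), which understates changes of low genes, over 12 libraries, 4 group means and 12616 genes with a mean-variance trend. Tests were two-sided, with Benjamini-Hochberg adjustment over all genes of a contrast and calls at an adjusted p under 0.05. Scripts were tested on simulated data. Depth limits low genes, and floors of 3 reads cover counting error only. Alternatives were edgeR 4.0.16 (quasi-likelihood) and DESeq2 1.42.0 on recovered reads, upper-quartile, quantile and spike-in scaling, pseudocounts of 0.1 and 5, a filter (5 in 3 libraries), no trend, each line alone, a replicate block and each library left out. Named were the 10 members, MITF, up to 4 called genes per pathway list by largest change in either line, the 2 most alike genes per member, and genes overlapping a member. BACE2 and TPCN2 were named besides, and their alternatives are not given. Loci are from GENCODE (hg38). The members and lists were chosen with earlier results of these data known. The paper gives RPMI for its melanoma lines, whereas the labels give EMEM for MeWo.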

Additional observations from a re-analysis of the deposited data

Results flagged for a closer look

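The change with Dox differed between the lines by a test of the difference itself for 4 of the 10 genes (limma, change in MeWo minus change in SkMel28). For DCT the difference was 1.15 (adjusted p 0.00045), with Dox libraries above all controls in MeWo and overlapping them in SkMel28. For MLANA it was −1.10 (adjusted p 0.000141), with a fall in each line. For TYRP1 it was −0.90 (adjusted p 0.0298), the closest of the 4 to the threshold. For SLC24A5 it was −0.76 (adjusted p 0.0109), with Dox libraries under all controls in MeWo and above all controls in SkMel28, where the rise was not called. No group held more than 3 libraries, and single libraries were not tested as outliers.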

How the results depend on the processing

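Over 50 gene and contrast pairs of the 10 members, 1050 of 1120 alternative values kept their direction and their side of the threshold, 52 lost a call, 13 gained 1 and 5 turned their direction. With quantile normalization these were PMEL between the lines, at 0.27 without Dox and 0.24 with Dox, and SLC24A5 between the lines without Dox, at −0.051. With scaling to the spike-ins they were the difference of Dox changes of SLC45A2, at 0.22, and of GPR143, at 0.12, and that of MITF also turned, to 0.066. Of these only the PMEL values were called, in the analysis as reported or in the alternative. Among pathway genes, values that were not called turned for IRF4 in SkMel28 (0.009 with upper-quartile scaling, −0.13 to 0.11 with a library left out), CLCN7 in the difference (0.005 with DESeq2, 0.30 with the spike-ins, −0.28 to 0.22 with a library left out) and APOE in MeWo (0.21 with the spike-ins, −0.11 to 0.022 with a library left out). The number of members whose change differed between the lines fell from 4 to 1 with scaling to the spike-ins, leaving DCT. With a library left out, the members called were 7 to 10 in MeWo, 5 to 7 in SkMel28, 3 to 6 for the difference, 5 to 6 between lines without Dox and 7 to 8 with Dox. Calls over all genes, which were 2107, 1378 and 894, then ran from 1281 to 3913 in MeWo, 784 to 2042 in SkMel28 and 449 to 3115 for the difference. The highest counts, 3913, 2042 and 3115, all came from leaving out MeWo Dox replicate 1. The fit of MeWo alone called 813 genes, fewer than the 2107 of the joint fit. The fit of SkMel28 alone called more genes than the 1378 of the joint fit, so the order of the lines was reversed. The backgrounds of 16.7% and 10.9% of all genes called belong to the joint fit. With each line alone, 7 members were called in MeWo and 6 in SkMel28. No pairing of libraries by replicate number was shown. Deviations of libraries with the same number correlated at −0.305, −0.073 and 0.047 in MeWo and at −0.105, 0.120 and 0.289 in SkMel28. Not every library correlated best with its own number. Deviations were taken from means of 3 libraries and are not independent, so this check cannot exclude pairing. With the replicate block 9 members were called in MeWo (without OCA2), 6 in SkMel28 (with TYRP1), 4 for the difference, and 6 and 7 between the lines. With spike-ins in the denominator the share of reads in the members was 1.25% in MeWo control, 1.2% in SkMel28 control and 0.673% in SkMel28 Dox. Depth limited IRF4 in MeWo, BACE1 and KIT in SkMel28 and ATP6V0D2 in both lines, which rest on few reads. Where the text names no cause for a lost call, the cause was not tested.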
